A study of Saccharomyces cerevisiae with 24 samples.

Results

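The Jumonji C (JmjC) family of histone demethylases in budding yeast, RPH1, GIS1, JHD1, JHD2 and ECM5, was followed together with SET2, which encodes the methyltransferase that writes the H3K36 mark. These 6 genes were chosen by name, from 7036 annotated entries, and not by a rule on their measured values. Earlier results of these data were known when they were chosen. All 6 passed the filter on low counts, which kept 6169 entries.

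Saccharomyces cerevisiae cells of strain BY4741, a laboratory haploid, were either wild type or carried an rph1 deletion. Each genotype was left without treatment or received rapamycin, an inhibitor of the growth regulator TORC1, which gave 4 groups of 2 RNA-seq libraries of total RNA. The labels give neither dose nor duration of rapamycin, and no allele beyond the deletion, and do not say whether the deletion strain was 1 clone or whether the 2 libraries of a group came from separate cultures. The p-values therefore measure the spread between these libraries. Chromatin immunoprecipitation (ChIP) of FLAG-tagged Rph1, in cells whose genotype label is wild type, was used as the authors' gene list for each condition. The ChIP of RNA polymerase II in this series is not analysed here.

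JmjC proteins remove methyl groups from lysines in an oxidation that uses iron, oxygen and 2-oxoglutarate. Rph1 acts on trimethylated and dimethylated H3K36, Jhd1 on less methylated forms of the same lysine, and Jhd2 on H3K4. H3K36 methylation is laid down by Set2 as it travels with elongating RNA polymerase II, and H3K4 methylation by the COMPASS complex near gene starts. Rph1 and its paralogue Gis1 also carry zinc fingers and bind DNA at stress-related promoters, while Ecm5 lacks residues needed for catalysis.

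Total counts ranged from 18037199 to 24769193 per library, and Spearman correlations across genes, which are not independent replicates, ranged from 0.985 to 0.995 within groups. Levels are given as CPM, counts scaled to a common library size by way of TMM, a factor computed after trimming the genes that differ most between libraries. Ribosomal protein genes took 21.0% and 22.2% of reads in untreated wild type and 3.5% and 2.75% in wild type with rapamycin, so shares of the library were redistributed on a large scale. The a-specific mating genes expected of BY4741 were present, with a summed level of 1811 to 2800 CPM over 6 genes. Of the marker genes of this strain background, LEU2 had 0 reads and URA3 and MET17 0 or 1 in every library, whereas HIS3 had 1391 to 8201 reads. HIS3 was also lower in the deletion than in wild type under rapamycin (log2 fold change -1.03 ± 0.08, edgeR adjusted p = 0.000613). In bulk samples, a change in the share of cells expressing a gene and a change in its RNA per expressing cell cannot be told apart.

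RPH1 (YER169W, chromosome V, 523369 to 525759 in the R64 assembly) checked the genotype. It stood at 67.8 and 85.1 CPM in untreated wild type, against 1.46 and 2.36 CPM in the untreated deletion. With rapamycin it stood at 75.4 and 100.4 CPM in wild type, against 3.67 and 1.83 CPM in the deletion. Wild type and deletion libraries were far apart in both conditions. The remaining reads numbered 30 and 43 without rapamycin and 82 and 45 with it, and where along the gene they map is not given by a count per gene. RPH1 RNA was 40.4-fold lower in untreated deletion cells (edgeR quasi-likelihood test, adjusted p = 0.000585) and 32.2-fold lower in those given rapamycin (adjusted p = 0.000584).

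Among the JmjC genes, rapamycin raised JHD2 and ECM5 in wild type cells, while RPH1, GIS1 and JHD1 did not pass the test. SET2 fell. In all, 3 of 6 genes changed in wild type, where 68.7% of all 6169 tested genes were called (34.8% higher and 33.9% lower), so the share of changed genes in the family was not above that of all genes. JHD2 and SET2 also exceeded a 2-fold change, as did 29.5% of tested genes.

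JHD2 (YJR119C, chromosome X, 644304 to 646490), the H3K4 demethylase, had the largest increase. Its levels were 15.7 and 17.8 CPM in untreated wild type and 40.3 and 56.1 CPM with rapamycin. The deletion gave 18.6 and 20.0 CPM without rapamycin and 55.9 and 65.6 CPM with it. All 4 treated libraries lay above all 4 untreated ones. Within wild type and within the deletion, treated and untreated libraries were separate, in either direction, for 83.6% and 81.7% of tested genes. The share separate over both genotypes at once was not computed. The increase was 2.87-fold in wild type (log2 fold change 1.52 ± 0.17 SE, n = 2 libraries per group, edgeR adjusted p = 0.000114), and 489 of 6169 genes had a larger rise. In the deletion it was 3.14-fold (1.65 ± 0.17, edgeR adjusted p = 0.000134).

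SET2 (YJL168C, chromosome X, 102227 to 104428) moved the opposite way. It was measured at 67.2 and 83.9 CPM in untreated wild type and at 21.0 and 26.3 CPM with rapamycin. Deletion cells held 50.3 and 65.3 CPM without the drug and 21.0 and 24.7 CPM with it. The 4 treated libraries were all below the 4 untreated ones, a separation whose share over all genes was not computed. The decrease was 3.20-fold in wild type (log2 fold change -1.68 ± 0.18, edgeR adjusted p = 8.69e-05) and 2.53-fold in the deletion (-1.34 ± 0.18, edgeR adjusted p = 0.000541).

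ECM5 (YMR176W, chromosome XIII, 611740 to 615975), whose product works with the DNA-binding protein Snt2, rose by less. Wild type libraries stood at 62.5 and 70.6 CPM untreated and 90.3 and 96.6 CPM with rapamycin. Those of the deletion stood at 70.2 and 69.5 CPM untreated and 90.5 and 84.9 CPM with rapamycin. Treated and untreated libraries did not overlap in either genotype. The change was 1.40-fold in wild type (log2 fold change 0.49 ± 0.09, edgeR adjusted p = 0.00171) and 0.33 ± 0.09 on the log2 scale in the deletion (edgeR adjusted p = 0.0159). The call in the deletion was lost when untreated deletion replicate 1 or 2, or treated deletion replicate 1, was left out (adjusted p 0.0619, 0.0767 and 0.0726).

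JHD1 (YER051W, chromosome V, 254656 to 256134) had the smallest change of the 6 genes in wild type. Its 43.7 and 41.7 CPM without rapamycin overlapped its 39.4 and 42.2 CPM with it (log2 fold change -0.06 ± 0.09, edgeR adjusted p = 0.564). In the deletion it went from 38 and 38.3 CPM to 50.2 and 46.1 CPM, with no overlap, a rise of 0.34 ± 0.09 on the log2 scale (edgeR adjusted p = 0.0155). That call too was lost without untreated deletion replicate 1 or 2 or treated deletion replicate 1 (adjusted p 0.0709, 0.0734 and 0.0885). JHD1 had the lowest biological coefficient of variation of the 6 genes, 0.076, which is at the 8.6th percentile of tested genes.

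GIS1 (YDR096W, chromosome IV, 637139 to 639823), a transcriptional activator in nutrient-starved cells, varied widely between replicates. Its 88.0 and 65.7 CPM in untreated wild type overlapped 101.8 and 72.4 CPM with rapamycin (log2 fold change 0.18 ± 0.21, edgeR adjusted p = 0.453). Deletion libraries rose from 64.2 and 48.0 CPM to 72.4 and 78.1 CPM without overlap, but the change of 0.42 ± 0.21 did not pass the test (edgeR adjusted p = 0.117). RPH1 in wild type had a change of 0.20 ± 0.25 (edgeR adjusted p = 0.493) and overlapping libraries. These paralogues had the largest coefficients of variation of the 6 genes, 0.194 for RPH1 and 0.152 for GIS1, at the 95.7th and 89.4th percentiles. In the deletion the change of RPH1, 0.53 ± 0.40 (edgeR adjusted p = 0.291), rested on the few residual reads.

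**Figure D1:**
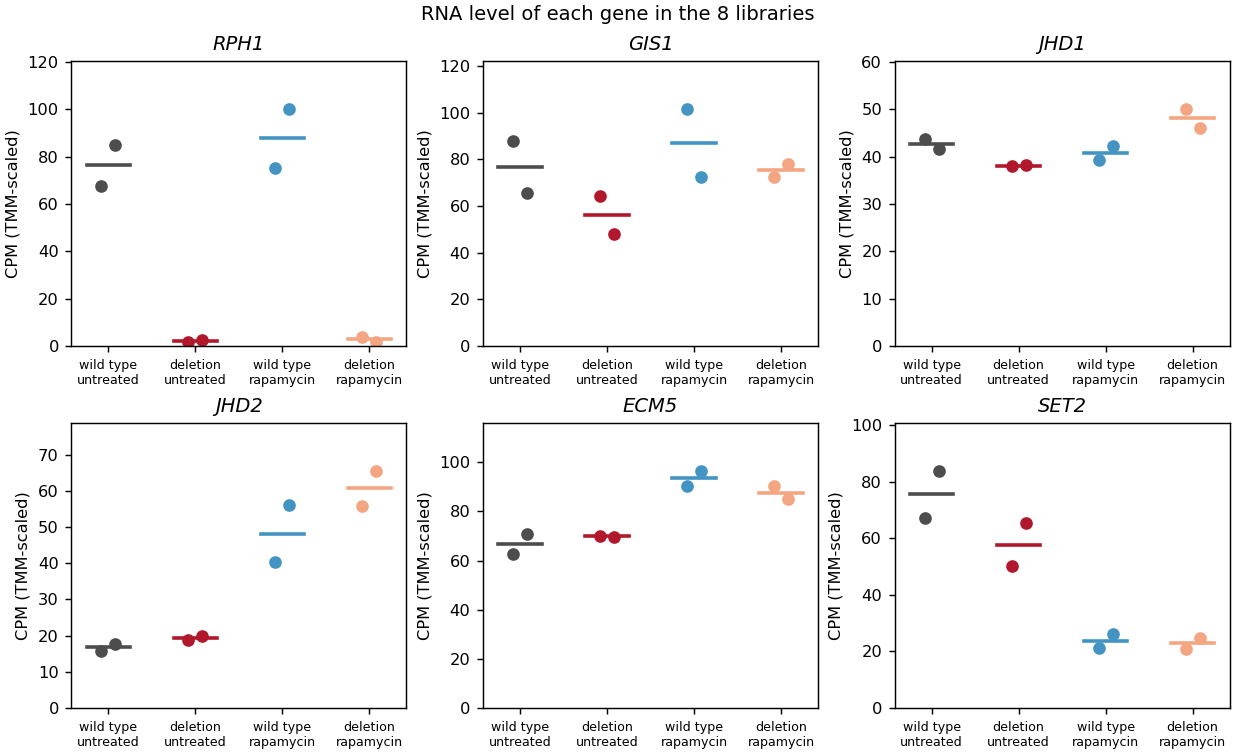
TMM-scaled CPM of each of the 6 genes (vertical axes) in the 8 libraries, by group (horizontal axes); each point is 1 library and each line the mean of 2. JHD2 lies at 15.7 to 20.0 CPM untreated and 40.3 to 65.6 CPM with rapamycin, and SET2 at 50.3 to 83.9 and 21.0 to 26.3 CPM.

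In the rph1 deletion with rapamycin against the untreated deletion, 4 of 6 genes were called, JHD1, JHD2 and ECM5 higher and SET2 lower, where 57.4% of tested genes were called (28.6% higher, 28.7% lower). Libraries of the 2 conditions did not overlap for 5 of 6 genes in the deletion and for 3 of 6 in wild type, set beside 81.7% and 83.6% of all tested genes. The 2 rapamycin comparisons share no library, whereas each shares a group with the comparisons of deletion and wild type.

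The question whether the rapamycin change differed between genotypes was addressed by the interaction. None of the 6 genes passed it (edgeR, 0 of 6, with 1 at an unadjusted p under 0.05 and 0 in DESeq2). Of all 6169 tested genes 13.1% were called, and 1858 had an unadjusted p under 0.05 in edgeR. JHD1 came nearest, with 0.40 ± 0.13 more change in the deletion (log2 scale, edgeR adjusted p = 0.0829). The differences were 0.13 ± 0.24 for JHD2, 0.34 ± 0.25 for SET2, -0.16 ± 0.13 for ECM5, 0.24 ± 0.29 for GIS1 and 0.33 ± 0.47 for RPH1. The errors for JHD2 and SET2 are large enough that a modest difference between genotypes was not detectable in 2 libraries per group.

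**Figure D2:**
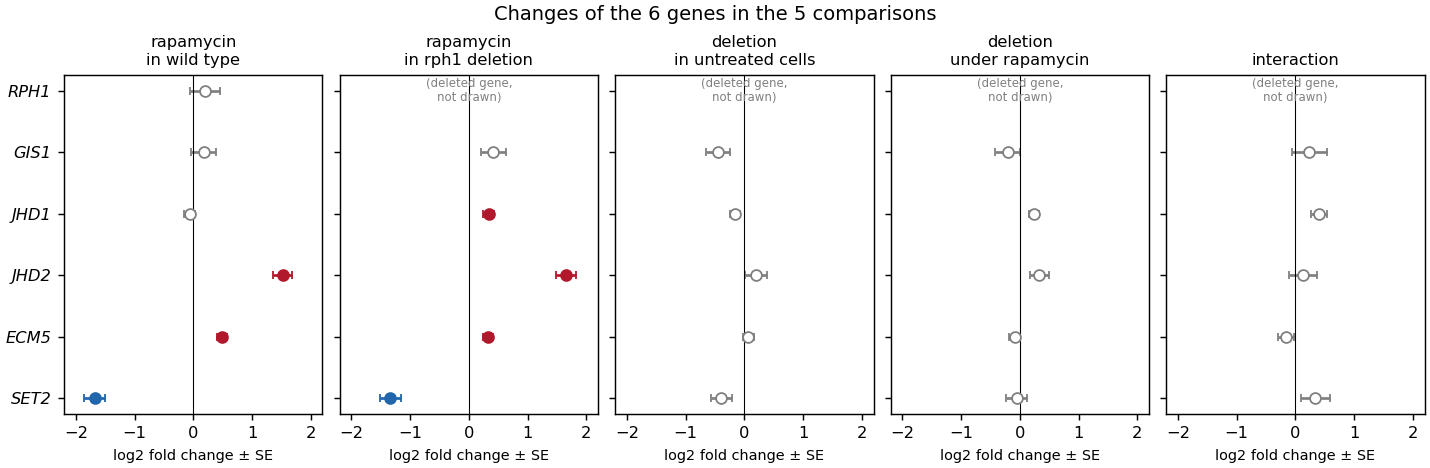
Log2 fold change of the 6 genes in each comparison, with bars of 1 SE from the edgeR fit over 8 libraries; filled points have an adjusted p under 0.05. JHD2 (1.52 and 1.65) and SET2 (-1.68 and -1.34) stand on opposite sides of 0 under rapamycin in both genotypes, and among the deletion comparisons no point is filled. RPH1 is drawn only for rapamycin in wild type.

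Between deletion and wild type, the other JmjC genes and SET2 did not pass the test. In untreated cells 0 of 5 were called by edgeR, 0 by DESeq2 and 0 had an unadjusted p under 0.05. In that comparison 7.41% of tested genes were called (4.88% higher and 2.53% lower), and 1497 of 6169 had an unadjusted p under 0.05. The log2 fold change was -0.45 ± 0.21 for GIS1 (edgeR adjusted p = 0.234), -0.39 ± 0.18 for SET2 (0.222) and -0.16 ± 0.09 for JHD1 (0.330), each with both deletion libraries below both wild type libraries. JHD2 was 0.20 ± 0.18 higher (0.520), also without overlap, and ECM5 overlapped (0.07 ± 0.09, 0.683). Such separation, seen here in 4 of 5 genes, also held for 52.9% of tested genes.

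Under rapamycin 28% of tested genes were called between deletion and wild type (14.4% higher and 13.5% lower), and again 0 of the 5 genes. DESeq2 called 0 of the 5. In edgeR an unadjusted p under 0.05 was reached by 1 of the 5 and by 2511 of all 6169 tested genes. JHD1 was 0.24 ± 0.09 higher in the deletion, with no overlap of libraries (edgeR adjusted p = 0.0914). JHD2 was 0.33 ± 0.16 higher (0.168), and when wild type rapamycin replicate 2 was left out this became 0.61 and passed the test (edgeR adjusted p = 0.0408). GIS1 (-0.21 ± 0.21), ECM5 (-0.09 ± 0.09) and SET2 (-0.05 ± 0.18) had overlapping libraries and adjusted p of 0.482, 0.485 and 0.869 in edgeR. The library ranges were separate for 1 of 5 genes, JHD1, and for 68.6% of tested genes. Deletion libraries also differed in 1 of 3 alpha-specific mating genes, STE3, the a-factor receptor gene, which stood at 2.5 to 4.23 CPM in wild type and 11.7 to 14.6 CPM in the deletion (log2 fold change 2.23 ± 0.16 untreated and 1.85 ± 0.14 under rapamycin, edgeR adjusted p = 0.000925 and 0.000605). MF(ALPHA)2 was not called with or without rapamycin (edgeR adjusted p = 0.49 and 0.20), and the defining pheromone gene MF(ALPHA)1 had 3 to 12 reads in every library. Of 6 a-specific genes, AGA2 was higher in the deletion, by 1.04 ± 0.09 untreated and 0.47 ± 0.09 under rapamycin (edgeR adjusted p = 0.002 and 0.0069). MFA2 had -0.76 ± 0.14 untreated (0.0215) and was not called under rapamycin (0.536). The other 4 were not called in either condition. The summed level of the 3 alpha-specific genes was 8.92 to 10.4 CPM in wild type and 19.9 to 21.5 CPM in the deletion. The part of these mating genes in the results above was not tested.

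Levels of different genes were compared per length of gene, as CPM divided by the length in kilobases. SET2 stood first in untreated wild type at 34.3 (library range 30.5 to 38.1). RPH1 (32.0, range 28.4 to 35.6), JHD1 (28.8, 28.2 to 29.5) and GIS1 (28.6, 24.5 to 32.8) followed. The ranges of neighbours in this order overlapped among these 4 genes. ECM5 (15.7, 14.8 to 16.7) and JHD2 (7.65, 7.16 to 8.14) lay below them, and each was separate from its neighbours.

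With rapamycin the order in wild type was different. RPH1 led at 36.8 CPM per kilobase (range 31.5 to 42.0), followed by GIS1 at 32.5 (27.0 to 37.9) and JHD1 at 27.6 (26.6 to 28.6), with neighbouring ranges overlapping. ECM5 at 22.1 (21.3 to 22.8) and JHD2 at 22.0 (18.4 to 25.7) could not be separated, and SET2 came last at 10.7 (9.55 to 12.0). SET2 thus went from the 36.6th to the 9th percentile of tested genes of known length, and JHD2 from the 7.7th to the 22.2nd.

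In the deletion RPH1 came last in both conditions. Untreated, SET2 (26.2), JHD1 (25.8) and GIS1 (20.9) were followed by ECM5 (16.5) and JHD2 (8.83). The library range of SET2, 22.8 to 29.6, held that of JHD1 and overlapped that of GIS1, and the rest were separate. With rapamycin the levels were 32.6 for JHD1, 28.0 for GIS1, 27.8 for JHD2, 20.7 for ECM5 and 10.4 for SET2 CPM per kilobase. GIS1 and JHD2 overlapped there and the others were separate, with JHD1 above GIS1 and JHD2 above ECM5.

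**Figure D3:**
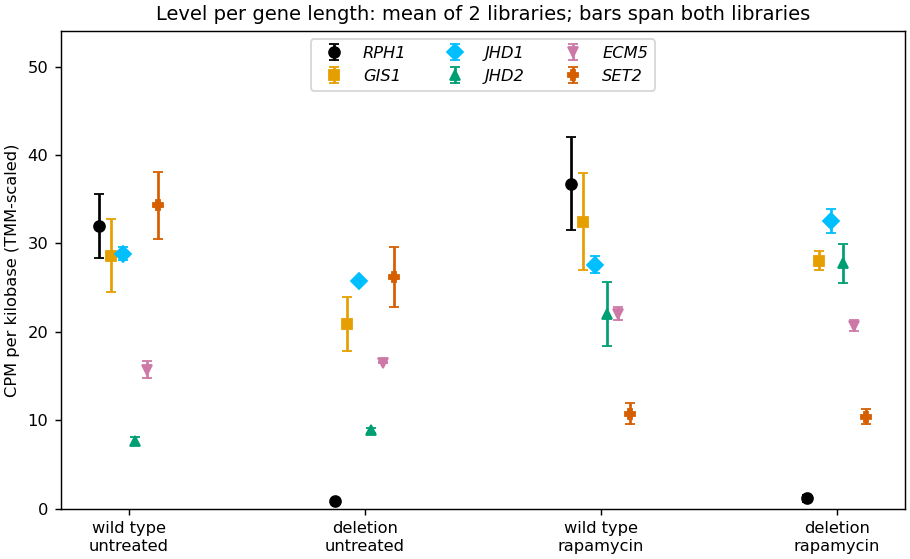
Level per gene length (CPM per kilobase, TMM-scaled, linear axis) of the 6 genes in each group; points are means of 2 libraries and bars span both libraries. SET2 is highest in untreated wild type at 34.3 and lowest with rapamycin at 10.7, and JHD2 goes from 7.65 to 22.0.

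Ratios of 2 genes inside 1 library do not depend on how libraries are scaled. The per-length ratio of JHD2 to SET2 was 0.234 and 0.214 in untreated wild type and 1.93 and 2.15 with rapamycin. In the deletion it was 0.373 and 0.309 untreated and 2.68 and 2.67 with rapamycin. The ratio was thus below 1 in all 4 untreated libraries and above 1 in all 4 treated ones. In each condition both deletion libraries exceeded both wild type libraries, though neither gene was called between genotypes. Single genes were separate between genotypes in 52.9% of cases untreated and 68.6% under rapamycin. The share of gene pairs whose ratios separate was not computed.

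Against JHD1, the steady gene in wild type, SET2 stood at a ratio of 1.03 and 1.35 untreated and 0.359 and 0.419 with rapamycin in wild type. In the deletion these were 0.889 and 1.15 untreated and 0.281 and 0.360 treated. SET2 thus stood below JHD1 in every treated library, and also in untreated deletion replicate 1 (0.889). In the deletion JHD1 itself was called higher with rapamycin (log2 fold change 0.34 ± 0.09). JHD2 relative to JHD1 was 0.242 to 0.354 over the untreated libraries and 0.691 to 0.961 over the treated ones, with no overlap. The ratio of SET2 to RPH1, writer to eraser of H3K36 trimethylation, went from 1.08 and 1.07 to 0.303 and 0.285 in wild type.

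**Figure D4:**
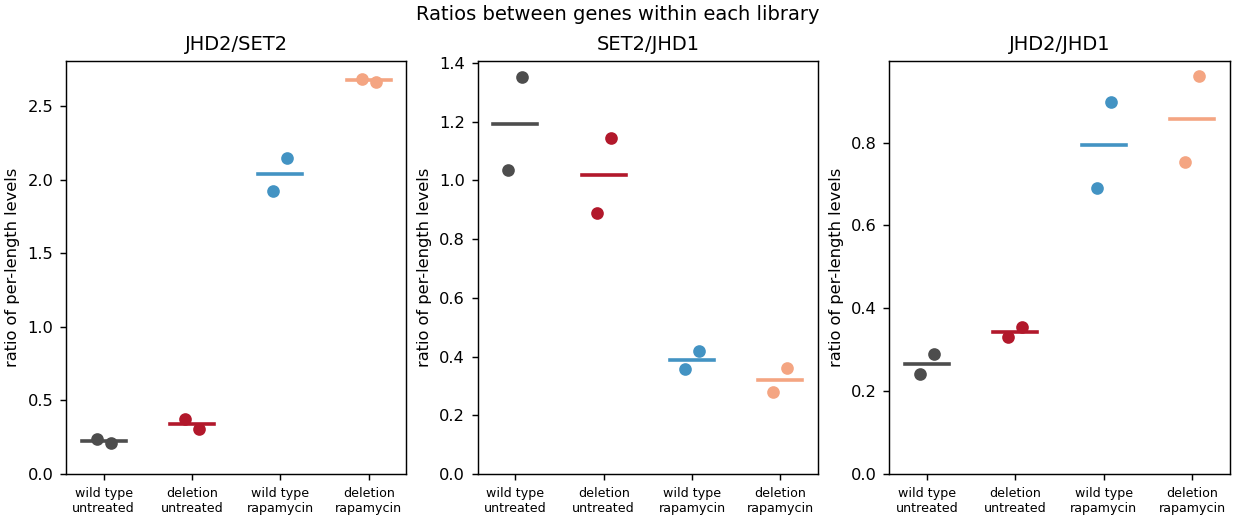
Per-length ratios of gene pairs within each library (linear axes) by group; points are libraries and lines means of 2. JHD2/SET2 is 0.214 to 0.373 untreated and 1.93 to 2.68 with rapamycin, while SET2/JHD1 falls from 0.889 to 1.35 down to 0.281 to 0.419.

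Over the 8 libraries, log2 CPM of JHD2 and ECM5 had a Pearson correlation of 0.925, and SET2 correlated at -0.921 with JHD2 and -0.907 with ECM5. These describe 4 groups of 2 libraries that share treatment and are not 8 independent points. RPH1 and GIS1 correlated at 0.508.

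Of 5313 genes that averaged 10 CPM or more, those most like JHD2 over the 8 libraries were VBA1 (r = 0.997), ACS1 (0.997), an acetyl-CoA synthetase gene, and PTR3 (0.996), an amino acid sensor gene. Their log2 fold changes with rapamycin in wild type were 0.95 ± 0.10, 2.02 ± 0.17 and 0.49 ± 0.10, so the likeness is one of pattern and not of size. Having been picked from these same libraries, they are given without a test. SET2 was matched by MMT1 (0.997), YCL002C (0.996) and RPC82 (0.996), a subunit of RNA polymerase III. MMT1 is also the gene next to ECM5, 590 bases away.

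ECM5 was matched by AAD3 (0.989), FLO1 (0.985) and STP1 (0.982). JHD1 was most like SNF12 (0.935), OPT2 (0.931) and SRL2 (0.919), and GIS1 most like SUB1 (0.963), UFE1 (0.928) and CSE2 (0.927). RPH1, whose pattern is set by the deletion, was matched by COS12 (0.983), YBL100C (0.977) and SEC8 (0.970). COS12 belongs to a family of related genes, and whether the counting split reads among them was not tested. Its log2 fold change was -3.20 ± 0.18 in the untreated deletion and -2.79 ± 0.17 in the deletion under rapamycin. COS12 was picked for following RPH1 in these same libraries, so these values are descriptive and no test is given. In this measure 3 of the 18 genes were also among those picked by Spearman correlation.

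The genes that flank each member were also read. ADK2, 214 bases from the deleted RPH1, was higher in the deletion than in wild type under rapamycin, by 0.78 ± 0.13 (edgeR adjusted p = 0.005). Untreated it had 0.52 ± 0.14 and did not pass the test (0.0585). CCA1, 699 bases away on the other side, was not called between genotypes untreated or under rapamycin (-0.17 ± 0.12 and 0.05 ± 0.12, edgeR adjusted p = 0.428 and 0.802). The source of the ADK2 difference was not tested. GIS1 lies between DNF2, 1018 bases away, which fell by 0.99 ± 0.11 with rapamycin in wild type (edgeR adjusted p = 7.36e-05), and MSH6, 285 bases away, with 0.27 ± 0.11 (0.0608). Either side of JHD2, ILM1 (202 bases, -0.07 ± 0.10) and DMO1 (635 bases, -0.03 ± 0.28) did not pass the test in wild type. MMT1 beside ECM5 fell by 1.49 ± 0.19 (edgeR adjusted p = 0.000214) while ECM5 rose.

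SET2 lies between ASG7, 447 bases away, and the sterol pathway gene ERG20, 585 bases away. ASG7, an a-specific gene, rose by 0.65 ± 0.12 with rapamycin in wild type (edgeR adjusted p = 0.00175), and ERG20 changed by 0.17 ± 0.09 (0.130). ASG7 was also higher in the deletion than in wild type, by 1.0 ± 0.12 untreated and 0.71 ± 0.12 under rapamycin (edgeR adjusted p = 0.0058 and 0.00414), though the first was not called when only the libraries compared were fitted (adjusted p = 0.0672). Whether the authors' counting used strand is not stated, so reads from an overlapping transcript on the other strand cannot be separated. The entries that adjoin SET2 and GIS1 by name but were not in the gene table, YJL169W and YDR095C, held 6 to 29 reads, against at least 469 for SET2 and 876 for GIS1.

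HOM3, the aspartate kinase gene, lies 240 bases from JHD1 and stood at different levels in the genotypes under rapamycin. It rose by 1.13 ± 0.14 with rapamycin in wild type (edgeR adjusted p = 0.000199), had 0.27 ± 0.14 in the deletion (0.130), and differed by -1.12 ± 0.14 between deletion and wild type under rapamycin (0.0018). The other neighbour of JHD1, RSM18, 268 bases away, rose by 0.74 ± 0.10 in wild type and 0.70 ± 0.10 in the deletion (edgeR adjusted p = 0.000286 and 0.000684).

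FLAG-Rph1 was assigned to 1 of the 6 genes, its own. Of the 6 genes, 0 were on the list of 466 genes for untreated cells in the authors' deposited table, of which 465 matched an entry of the count files, 6.61% of all entries. Under rapamycin the authors' deposited table listed 705 genes, of which 689 matched an entry, 9.79% of all entries, and of the 6 genes it held RPH1 alone, with a fold enrichment of 17.0. In the authors' deposited table this was below the list's median of 25.3, at rank 507 from the highest, and the lowest value was 5.01. GIS1, JHD1, JHD2, ECM5 and SET2 were on neither list, and of the 12 flanking genes HOM3 alone was on one, under rapamycin, with 81.6 in the authors' deposited table. The labels name replicate FLAG-Rph1 and input libraries in each condition, but the lists were given once per condition. These values thus have no replicate check, and a gene that is not listed may lie below the authors' threshold.

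Of the genes around Set2, 8 of 12 fell with rapamycin in wild type, and CTK2, CTK3, BUR2 and RTF1 did not pass the test. Of these 12 partners and upstream factors, which include the elongation factor Spt6, the CTD kinases and the PAF complex, 8 were lower and 0 higher (33.9% and 34.8% of all tested genes), with a median log2 fold change of -0.53 against 0.02 over all tested genes. SGV1, the catalytic subunit of the BUR kinase, fell by 0.86 ± 0.09 (edgeR adjusted p = 5.21e-05), the PAF complex subunit genes CTR9 and LEO1 by 0.77 ± 0.08 (7.15e-05) and 0.69 ± 0.11 (0.000572), and SPT6 by 0.70 ± 0.09 (0.000266). In the deletion 5 were lower and 1, CTK2, was higher (28.7% and 28.6% of all tested genes), with a median of -0.22. The 5 became 3 without untreated deletion replicate 1, and 2 without untreated deletion replicate 2 or treated deletion replicate 2. CTK2 was not called in any of these 3 fits.

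Readers of H3K36 methylation, the Rpd3S deacetylase, the Isw1b remodeller and PWWP or PHD proteins, gave 6 lower and 0 higher of 10 in wild type. Their median was -0.48, where 33.9% of all tested genes were lower and 34.8% higher. ISW1, the remodeller's ATPase, fell by 0.94 ± 0.10 (edgeR adjusted p = 8.07e-05), UME1 by 0.90 ± 0.12 (0.000347), RCO1, the PHD subunit particular to Rpd3S, by 0.89 ± 0.09 (6.48e-05) and IOC2 by 0.69 ± 0.10 (0.000475). EAF3, the chromodomain subunit, had 0.10 ± 0.10 (0.378). In the deletion 5 were lower (median -0.25), where 28.7% of all tested genes were. The 5 became 3 when untreated deletion replicate 2 or treated deletion replicate 1 was left out.

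COMPASS, the H3K4 methyltransferase that opposes Jhd2, had 5 lower and 1 higher of 8 subunit genes in wild type (median -0.44). Of all tested genes 33.9% were lower and 34.8% higher there. SET1, the catalytic subunit, fell by 0.73 ± 0.09 (edgeR adjusted p = 0.000161), SWD1 by 0.52 ± 0.11 (0.00349) and SWD2, shared with a termination complex, by 1.34 ± 0.12 (3.39e-05), while SDC1 rose by 0.39 ± 0.08 (0.0028). In the deletion 4 were lower and 2 higher (median -0.27), where 28.7% and 28.6% of all tested genes were. Leaving out either untreated or either treated deletion library brought the 2 higher to 1 or 0. In wild type, RNA of 5 of the 8 subunits of this H3K4 writer fell and that of SDC1 rose, as did that of JHD2. Any effect on H3K4 methylation was not tested.

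Of 7 genes of H2B ubiquitylation, the mark on which COMPASS depends, 3 were lower and 1 higher in wild type (median -0.10), where 33.9% of all tested genes were lower and 34.8% higher. The deubiquitinase genes UBP8 and UBP10 fell by 1.37 ± 0.18 and 1.30 ± 0.26 (edgeR adjusted p = 0.000237 and 0.00235), the ligase gene BRE1 by 0.86 ± 0.09 (8.87e-05), and SUS1 rose by 0.41 ± 0.10 (0.00578). Both a ligase and its opposing proteases thus fell. In the deletion 4 were lower and 1 higher (median -0.59), where 28.7% and 28.6% of all tested genes were, and the 1 higher was lost without untreated deletion replicate 2 or either treated deletion library.

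DOT1, the H3K79 methyltransferase gene, and 8 other SET domain genes gave 2 higher and 3 lower of 9 in wild type (median -0.26), no larger a share than the 34.8% higher and 33.9% lower of all tested genes. SET6 rose by 1.30 ± 0.11 (edgeR adjusted p = 2.19e-05), whereas RKM3, RKM2 and RKM4, which methylate ribosomal proteins, fell by 1.46 ± 0.12, 0.63 ± 0.10 and 0.62 ± 0.08 (1.89e-05, 0.000597 and 0.000268). The 2 higher became 1 without wild type rapamycin replicate 1. In the deletion 3 were higher and 3 lower (median -0.12), where 28.6% and 28.7% of all tested genes were, and 1 higher without treated deletion replicate 1.

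The partners of Ecm5 were split, as SNT2 rose by 0.56 ± 0.10 (edgeR adjusted p = 0.00155) while the deacetylase gene RPD3, also counted among the readers above, had -0.21 ± 0.09 (0.0745). In the deletion SNT2 rose by 0.45 ± 0.10 (0.00647) and RPD3 had 0.01 ± 0.09 (0.966).

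Of 6 genes reported as repressed by Rph1, 5 were higher and 0 lower with rapamycin in wild type. Their median was 0.97, where 34.8% of all tested genes were higher and 33.9% lower. ATG14 did not pass the test in wild type (0.45 ± 0.26, edgeR adjusted p = 0.147) or in the deletion (0.33 ± 0.24, 0.275). ATG8, the autophagosome ubiquitin-like protein, rose by 2.07 ± 0.28 (edgeR adjusted p = 0.000287), PHR1, the photolyase gene, by 1.45 ± 0.23 (0.000744), ATG9 by 1.15 ± 0.11 (3.31e-05) and ATG29 by 0.80 ± 0.18 (0.00512). In the deletion 5 were higher (median 0.85), where 28.6% of all tested genes were, and 3 without untreated deletion replicate 2. Comparing deletion with wild type, 0 of 6 were called in untreated cells and 0 under rapamycin in edgeR (7.41% and 28% of all tested genes). An unadjusted p under 0.05 was reached by 3 and 2, and DESeq2 called 2 and 2. Of all 6169 tested genes, 1497 and 2511 had an unadjusted p under 0.05 in edgeR.

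Reported targets of Gis1 were higher with rapamycin, 4 of 4 in wild type (median 2.93) and 3 of 4 in the deletion (median 2.58). Of all tested genes 34.8% and 28.6% were higher. GIS1 RNA itself did not pass the test in either. The small heat shock gene HSP26 rose by 5.18 ± 0.54 (edgeR adjusted p = 6.82e-05), HSP12 by 3.70 ± 0.53 (0.00042), GRE1 by 2.17 ± 0.30 (0.000316) and SSA3, an Hsp70 gene, by 1.17 ± 0.11 (4.19e-05). SSA3 was the one not called in the deletion, at 0.25 ± 0.11 (0.0860).

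Kinases and inhibitors that signal to Rph1 and Gis1 gave 6 higher and 0 lower of 9 in wild type (median 0.33). Of all tested genes 34.8% were higher and 33.9% lower there. YAK1, a kinase gene of the stress response, rose by 0.91 ± 0.26 (edgeR adjusted p = 0.0142), PHO85 by 0.81 ± 0.13 (0.000606) and the paralogues IGO1 and IGO2, which protect Gis1-dependent transcripts, by 0.64 ± 0.14 (0.0045) and 0.64 ± 0.11 (0.0012). The call for YAK1 was lost without untreated wild type replicate 2 or wild type rapamycin replicate 1 (adjusted p 0.0568 and 0.0855). In the deletion 4 were higher and 1, RAD53, was lower (28.6% and 28.7% of all tested genes), with a median of 0.15. Without untreated deletion replicate 2 or treated deletion replicate 1, 2 were higher.

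The substrate genes, HHT1 and HHT2 for histone H3, rose by 0.62 ± 0.14 and 0.74 ± 0.19 in wild type (edgeR adjusted p = 0.00482 and 0.00816). HHT2 was not called without wild type rapamycin replicate 1 (adjusted p = 0.0559). In the deletion 0 of 2 were called by edgeR, 0 had an unadjusted p under 0.05, and DESeq2 called 0, with changes of 0.30 to 0.33. There edgeR called 57.4% of all tested genes, and 3849 of 6169 had an unadjusted p under 0.05. The encoded protein is the same for both genes, so reads could be shared between near-identical copies. Both were on the FLAG-Rph1 lists of both conditions, HHT1 at 19.0 untreated and 66.0 with rapamycin and HHT2 at 56.0 and 409.3 in the authors' deposited table, and of the other genes named in these lists BRE1 alone was listed, at 8.62 with rapamycin.

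**Figure D5:**
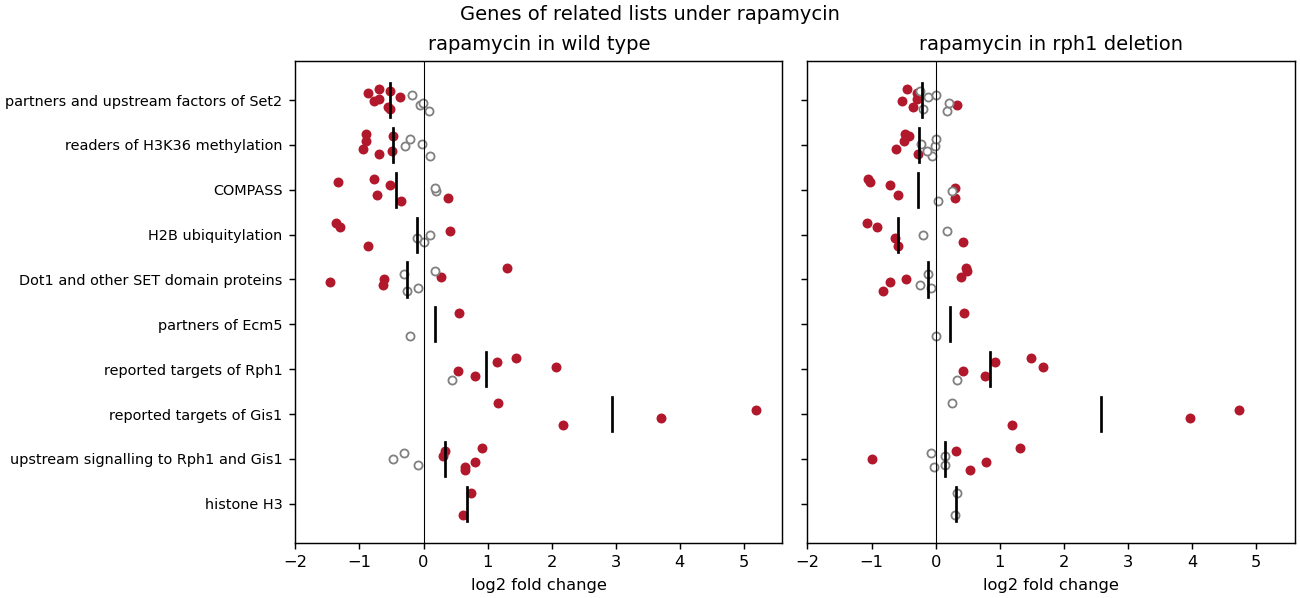
Log2 fold change with rapamycin of the genes in each companion list, wild type and rph1 deletion, 1 point per gene, with the list median as a vertical line and filled points for an adjusted p under 0.05 in edgeR. Medians in wild type run from -0.53 for the partners of Set2 to 2.93 for the reported targets of Gis1.

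Within these companion lists 1 gene was called between deletion and wild type in untreated cells, where 7.41% of all tested genes were. An unadjusted p under 0.05 was reached by 4 of 12 partners of Set2, 4 of 9 SET domain genes and 3 of 6 reported targets of Rph1. It was also reached by 1 of 10 readers, 1 of 4 targets of Gis1 and 0 in each other list. Over all 6169 tested genes it was reached by 1497. Calls over all genes ran from 14 to 1102 with the processing, so few calls do not show that little changed. SET6 was called higher in the deletion, by 0.57 ± 0.11 (edgeR adjusted p = 0.0241), and lost the call without untreated wild type replicate 2 or either untreated deletion library. No other gene of these lists was called there by edgeR, while DESeq2 called 2 of the reported targets of Rph1. Under rapamycin the log2 difference of deletion from wild type was -0.99 ± 0.11 for SSA3 (edgeR adjusted p = 0.00133), -0.71 ± 0.12 for RAD6, the H2B ubiquitin-conjugating enzyme gene (0.00491), and 0.40 ± 0.08 for BRE2 of COMPASS (0.00968).

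The partners of Set2 had 3 of 12 higher under rapamycin in the deletion, CTK2, SGV1 and CDC73, by 0.32 to 0.35, and 0 lower. Of all tested genes 14.4% were higher and 13.5% lower. CTK2 lost its call when any rapamycin library or either untreated deletion library was left out. The 3 partners called were reduced to 0 without wild type rapamycin replicate 2 or treated deletion replicate 1, and to 1 without treated deletion replicate 2. The readers of H3K36 methylation had 0 of 10 called by edgeR, where 28% of all tested genes were. DESeq2 called 1, and 4 had an unadjusted p under 0.05 in edgeR, as had 2511 of all 6169 tested genes.

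Other calls between deletion and wild type under rapamycin were small or unstable. IGO2 (-0.63 ± 0.11, edgeR adjusted p = 0.0055) lost its call without treated deletion replicate 2, and the checkpoint kinase gene RAD53 (-0.75 ± 0.19, 0.0243) without wild type rapamycin replicate 2 or either treated deletion library. RKM3 (0.45 ± 0.12, 0.0268) lost it without either wild type rapamycin library or treated deletion replicate 1, and RKM1 (-0.37 ± 0.10, 0.0316) when any 1 of the 4 rapamycin libraries was left out. SUS1 (-0.36 ± 0.10, 0.0298) and SDC1 (-0.25 ± 0.08, 0.0486) were not called when any 1 of the 4 rapamycin libraries or 2 untreated deletion libraries was left out. SDC1 was also lost in DESeq2, where its adjusted p was 0.119. In edgeR its call was lost with RLE scaling (adjusted p = 0.0720) and with TMM scaling without ribosomal protein genes (0.0573). The same held without the low-count filter (0.0575) and with only the libraries compared (0.0598).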

How the data were processed

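RNA-seq was measured in 8 libraries, 2 in each of 4 groups given by the labels. The deposited values are read counts per annotated entry, and per the submitters' processing notes the series used Trimmomatic 0.38, STAR 2.5.3a, Bowtie2 2.3.4.3, featureCounts 1.6.3, DESeq2 1.24.0, MACS2 2.2.1 and the sacCer3 build; the role of each, the annotation and the strand setting are not given in the sources used here. The FLAG-Rph1 lists hold, per the file headers, a fold enrichment (a ratio) for each listed gene; the control and any pooling of replicates are not given in the sources used here.

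The test was the quasi-likelihood F test of edgeR 4.0.16 (R 4.3.3) with TMM scaling, after filterByExpr at a minimum count of 10. A single model held a mean for each group and all 8 libraries. Tests were two-sided and adjusted by Benjamini-Hochberg over 6169 genes within a comparison, with calls under 0.05. Standard errors come from the F statistic. Scaling removes any shift in RNA content of the whole cell. The fit was tested on simulated counts with known changes. DESeq2 1.42.0 was 1 alternative; others changed scaling, filter, replicate numbers as a block, libraries in the fit, and left out each library.

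Positions, lengths and neighbours came from the RefSeq gene table of the R64 assembly, which matched 5956 of 7036 entries. Gene length is the span from start to end.

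The 6 genes, the companion lists and the tests were chosen with earlier results of these data known. Genes named from each companion list were up to 4 with the smallest p with rapamycin in wild type and up to 3 with the smallest p between genotypes under rapamycin, besides the neighbours of each member and the 3 genes most correlated with it. EAF3 was named after its values were seen.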

Additional observations from a re-analysis of the deposited data

Results flagged for a closer look

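For 6 genes around the family, the rapamycin change differed between genotypes by the interaction test of edgeR (n = 2 libraries per group). Over all tested genes 13.1% were called. By list the test called 1 of 12 partners of Set2, 2 of 9 SET domain genes, 1 of 4 targets of Gis1 and 1 of 9 signalling genes. It called 0 in each other companion list, and HOM3 is a flanking gene. Each difference is the change in the deletion minus that in wild type on the log2 scale. SGV1 fell less in the deletion, by 0.57 (adjusted p = 0.0226), and RKM3 by 0.75 (0.0267). SET6 rose less, with -0.83 (0.0152), SSA3 with -0.91 (0.0121), IGO2 with -0.66 (0.0332) and HOM3 with -0.85 (0.0308). None of the 6 genes of the family itself passed this test.

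Each call was lost in at least 1 of the 8 fits that left out 1 library, while the direction held in all 8. SSA3 stayed called in 7 of 8 (-1.04 to -0.80) and was lost without treated deletion replicate 1. SET6 stayed called in 4 (-0.93 to -0.74) and was lost when any 1 of the 4 deletion libraries was left out. SGV1 stayed called in 3 (0.50 to 0.63), and was lost when any 1 of the 4 deletion libraries, or wild type rapamycin replicate 2, was left out. RKM3 stayed called in 2 (0.64 to 0.85), those without untreated wild type replicate 1 or untreated deletion replicate 2. HOM3 stayed called in 2 (-1.04 to -0.66), those without untreated wild type replicate 1 or wild type rapamycin replicate 1. IGO2 stayed called in 1 (-0.78 to -0.54), that without untreated wild type replicate 1.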

How the results depend on the processing

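The changes of JHD2 and SET2 with rapamycin in both genotypes, of ECM5 in wild type and of RPH1 in the deletion kept direction and call under every alternative run. Among values for the 6 genes under the alternatives, 392 kept direction and call, 10 reversed, all of them changes that were not called, 6 gained a call and 6 lost one. Leaving out 1 library gave these ranges of log2 fold change: with rapamycin in wild type, GIS1 -0.07 to 0.44; with rapamycin in the deletion, RPH1 -0.03 to 0.97, JHD1 0.29 to 0.41 and ECM5 0.30 to 0.39; in the untreated deletion, ECM5 -0.02 to 0.16; in the deletion under rapamycin, GIS1 -0.42 to 0.09, JHD2 0.15 to 0.61 and SET2 -0.16 to 0.14; and in the interaction, RPH1 -0.25 to 0.75, GIS1 0.00 to 0.51 and JHD2 -0.09 to 0.37. The genes called ranged from 54 to 498 in the untreated deletion (457 with all libraries), 647 to 1994 under rapamycin (1725) and 96 to 1020 in the interaction (809). DESeq2 called 703 genes in the untreated deletion, and a fit of only the libraries compared called 14 there and gave GIS1 0.44 with rapamycin in the deletion (adjusted p = 0.0360). RLE scaling split the calls under rapamycin into 981 higher and 749 lower, against 891 and 834. On the rapamycin FLAG-Rph1 list 0 of the 6 genes stood at or above the list median, against 1 listed.

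Replicate numbers gave 2 pairs per comparison, and the labels do not say that they mark a batch. Differences between replicates correlated at 0.188 to 0.556 across genes between groups. With the replicate block, 1102 genes were called in the untreated deletion and 1648 in the interaction. The block gave calls to GIS1 with rapamycin in the deletion (0.45), SET2 in the untreated deletion (-0.39), JHD2 in the deletion under rapamycin (0.34) and JHD1 in the interaction (0.40), and changed no other call among the 6 genes. The causes were not tested. Limits are the 2 libraries per group, the residual reads of RPH1 and the FLAG-Rph1 lists given once per condition.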
